A study of Mus musculus with 15 samples.

Results

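Hox genes encode homeodomain transcription factors and lie in 4 clusters, Hoxa on chromosome 6, Hoxb on chromosome 11, Hoxc on chromosome 15 and Hoxd on chromosome 2 of the mouse genome. All rows of the deposited table whose symbol is Hox followed by a cluster letter and a paralogue number were taken. This gave 28 genes of 14091 listed features, with 7 Hoxa, 6 Hoxb, 8 Hoxc and 7 Hoxd members. GENCODE M21 names 39 such protein-coding genes in the mouse, and the other 11 are not analysed here. Within a cluster the paralogues stand in the order of their numbers. Genes with low numbers act in the front of the embryo and those with high numbers in the trunk end, the distal limb and the genital region. Fibroblasts keep in culture a Hox pattern that reflects the body site they came from, which is known as positional identity, and Polycomb and Trithorax group proteins are known to hold clusters silent or active. The 28 genes are described here in 3 sections, with 3 anterior (paralogues 1 to 3), 10 central (4 to 8) and 15 posterior members (9 to 13).

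All groups were fibroblasts of mouse embryos (MEF), cultured cells of the connective tissue, from the ICR strain. In the MΔGΔT and MGT groups they had been transduced with retrovirus and were collected 1 week later. MGT stands for Mef2c, Gata4 and Tbx5, cardiac transcription factors that together turn fibroblasts into induced cardiac muscle-like cells. The labels do not define the Δ of MΔGΔT, and the title names effector domains of MEF2C and GATA4 as what was engineered. The MEF group, the control, is labelled by the cell type alone, and whether it received an empty virus is not given. Each group held 5 libraries, made after depletion of ribosomal RNA. Nothing says that they came from separate cultures or litters, so the p-values measure the spread between these samples, which may be technical. Neither the part of the embryo that the cells came from nor any pooling of embryos is given.

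Counts summed to 9.57 to 10.62 M (M, mega) in MΔGΔT libraries, 9.29 to 11.13 M in MGT libraries and 8.21 to 10.39 M in MEF libraries. Of these, the 28 Hox genes together held 1337 to 1545, 1544 to 1807 and 1313 to 1666 counts. Levels are given as CPM, counts per mega-count of the library size adjusted for composition, and a gene is called higher or lower at an adjusted p under 0.05 in edgeR's quasi-likelihood test with Benjamini-Hochberg adjustment over all 13328 genes tested. The factor gene Gata4 stood at 187 to 196 CPM in MΔGΔT libraries, 138 to 168 CPM in MGT libraries and 1.92 to 3.13 CPM in MEF libraries. The cells of the groups differed well beyond the Hox genes. Summed over 8 fibroblast markers, levels were 25400 to 27700 CPM in MΔGΔT, 30600 to 32000 CPM in MGT and 51700 to 61000 CPM in MEF libraries. Of these 8, 2 were higher and 6 lower than in MEF in MΔGΔT, and 1 was higher and 7 lower in MGT. The higher ones were Vim, an intermediate filament gene, in both groups (1.69 and 0.88) and Thy1 in MΔGΔT (0.59; -0.59 in MGT). Summed over 7 cardiac muscle markers they were 9930 to 11300, 1020 to 1210 and 4.6 to 5.46 CPM. Summed over 11 listed macrophage markers they were 206 to 304, 161 to 292 and 2010 to 2680 CPM, and all 11 were lower in both transduced groups than in MEF. Sums over endothelial, epithelial, neural and skeletal muscle markers were 16.9 to 23.5, 0.666 to 1.21, 46.2 to 56.8 and 3.73 to 7.52 CPM in MΔGΔT, 22.8 to 30.9, 1.02 to 2.31, 60.5 to 78.5 and 0.816 to 1.35 CPM in MGT, and 21.9 to 24.8, 0.56 to 1.53, 146 to 179 and 0.335 to 1.01 CPM in MEF libraries. The neural sum was mostly Map2, at 45.2 to 55.5 CPM in MΔGΔT, 59.6 to 77.2 CPM in MGT and 140 to 175 CPM in MEF libraries. In the epithelial sum, Cdh1 had 0 to 1 counts in MΔGΔT, 0 to 2 in MGT and 4 to 15 in MEF libraries. Krt18 went the other way, with 5 to 11, 10 to 24 and 0 to 4 counts. Myog, which defines skeletal muscle, had 5 to 14 counts in MΔGΔT, 0 to 2 in MGT and 0 in MEF libraries. The endothelial marker Cdh5 had 0 to 1 counts in MΔGΔT, 0 to 3 in MGT and 9 to 22 in MEF libraries. Of the 3 tested endothelial markers, Kdr was higher in both transduced groups than in MEF (0.89 and 1.21), Tek was lower in both (-4.66 and -2.21), and Emcn was lower in MGT (-1.28) and not called in MΔGΔT (0.28). The part of these shifts in the Hox results was not tested. In these bulk libraries, fewer cells that express a Hox gene and less of its RNA per cell cannot be told apart.

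The Hox pattern of the cultures was led by the posterior gene Hoxd13, which with Hoxa13 patterns the hand and foot plate of the limb. Levels between genes were compared per length, by the share of each gene in the summed RPKM (reads per kilobase and mega-read) of the 28. Hoxd13 took 13.3% ± 0.571 of it in MΔGΔT, 19.2% ± 1.17 in MGT and 19.7% ± 1.20 in MEF libraries (SD, n = 5 each), and was the first of the 28 in all 3 groups. Hoxc8, a thoracic gene of the axial skeleton, held 10.9% ± 0.3, 7.85% ± 0.461 and 10.4% ± 1.63. Hoxd8 held 3.88% ± 0.323 in MΔGΔT and 3.33% ± 0.452 in MGT, against 10% ± 1.15 in MEF. By this share Hoxd8 was the third gene of the MEF libraries, behind Hoxd13 and another central gene, Hoxc8, and the tenth of both transduced groups. The places of Hoxc8 and Hoxd8 hold for RPKM only, which for both genes did not follow the count. On counts, Hoxc8 and Hoxd8 averaged 2.21 and 2.35 CPM in MEF libraries. Hoxa13 and Hoxb9, of similar exonic length (all 4 at 2472 to 2832 bases), averaged 13.6 and 11.8 CPM there. Hoxa10, which acts in the upper limb segment and the lumbar spine, held 7.02% ± 0.574, 9.39% ± 0.991 and 5.23% ± 0.936, and was the second gene of MGT libraries. At the low end stood Hoxb13, a gene of the tail end and the prostate, with 0.298% ± 0.198, 0.220% ± 0.156 and 0.0197% ± 0.027.

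**Figure D1:**
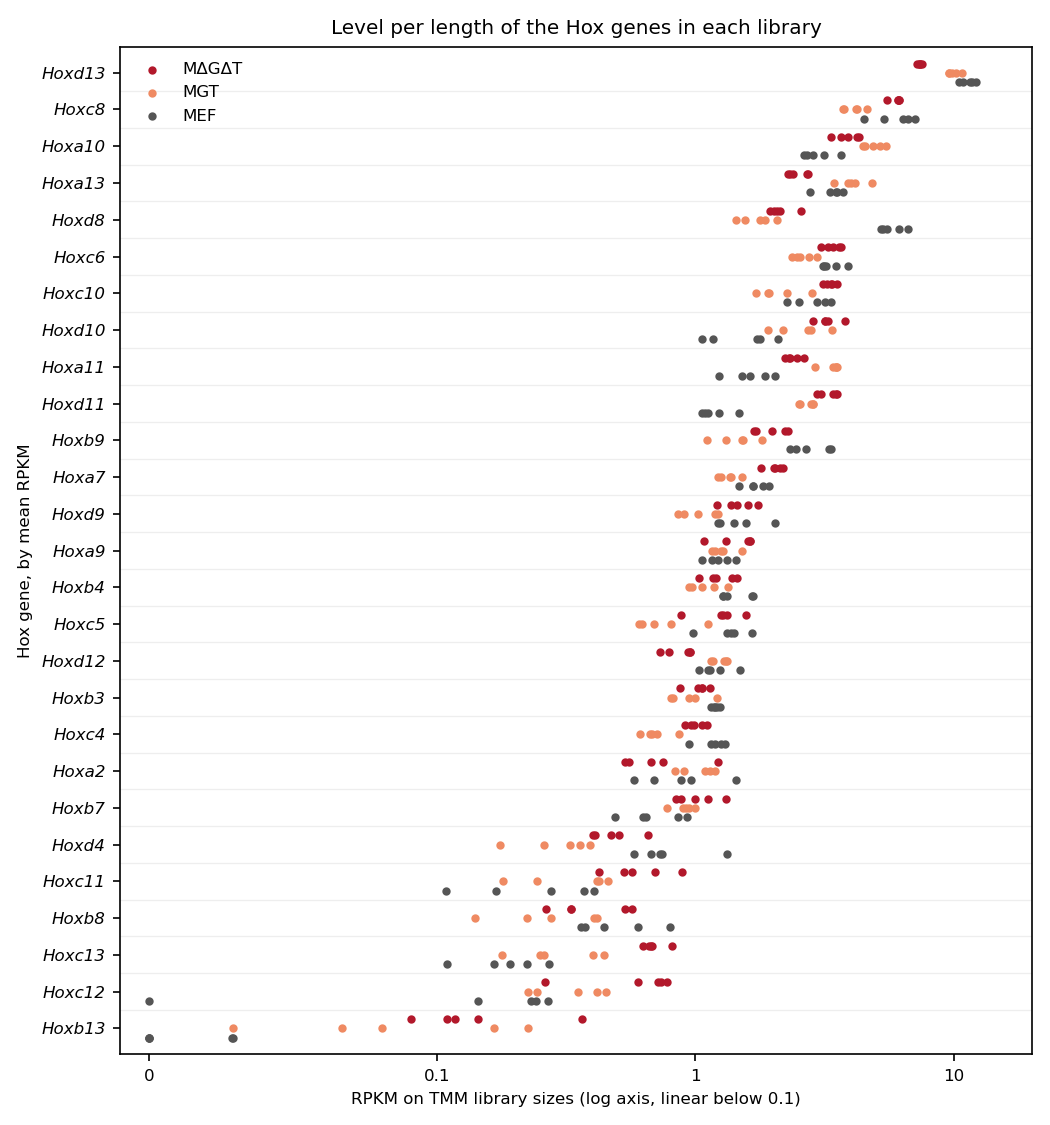
RPKM of 27 Hox genes in each of 15 libraries (points), put on the same library sizes as the counts, on a log axis that is linear below 0.1. Hoxd13 stands highest in all groups, Hoxd8 is lower and Hoxd11 higher in all MΔGΔT and MGT libraries than in all MEF libraries, and Hoxb13 is near 0 in MEF.

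Of the 28 genes, 24 had enough counts to be tested, and 4 (Hoxb3, Hoxb13, Hoxc12 and Hoxd4) did not. Against MEF, 8 of the 24 were higher in MΔGΔT, where 36.2% of all tested genes were, and 5 were lower, where 36.1% were. In MGT, 6 of the 24 were higher than in MEF, against 30.9% of all genes, and 10 were lower, against 30.3%. Of these 4 counts, only that of lower genes in MGT was above its background share. With the library totals implied by the deposited RPKM, which move the median of all genes by -0.24 in MΔGΔT against MEF, 6 were higher and 10 lower in MΔGΔT. The median log2 fold change of the 24 was -0.01 in MΔGΔT and -0.07 in MGT, against -0.01 and 0.00 over all tested genes. The median size regardless of sign was 0.41 and 0.55, against 0.38 and 0.26 over all genes. This size also grows with the counting spread of genes with few reads, as many Hox genes are, and was not adjusted for it. It therefore does not show by itself that Hox genes changed more than other genes. Both comparisons use the same 5 MEF libraries, so their values are set side by side without a measure of likeness.

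The sections differed in which calls they held. Of 13 tested posterior genes, 6 were higher and 4 lower than in MEF both in MΔGΔT (median log2 fold change 0.22) and in MGT (0.26). Of 9 tested central genes, 1 was higher and 1 lower in MΔGΔT (median -0.10), whereas 0 were higher and 6 lower in MGT (median -0.52). This contrast depended on scaling. With the library totals implied by the RPKM, the central genes Hoxb4 (-0.44, adjusted p = 0.00444) and Hoxc4 (-0.44, adjusted p = 0.00593) were lower in MΔGΔT too. So were Hoxc5 (-0.34, adjusted p = 0.035) and Hoxb8 (-0.59, adjusted p = 0.04), and Hoxb7 was no longer called higher. Of the 7 tested genes with paralogue numbers 11 to 13, 4 were higher and 3 lower in MΔGΔT, and 4 were higher and 1 lower in MGT. No test was made of a section as a whole. In all, the 5 libraries of MΔGΔT lay without overlap above those of MEF for 5 of the 24 genes (29.4% of all tested genes did) and below them for 5 (29% did). For MGT this held for 3 genes above (23%) and 4 below (22.8%).

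**Figure D2:**
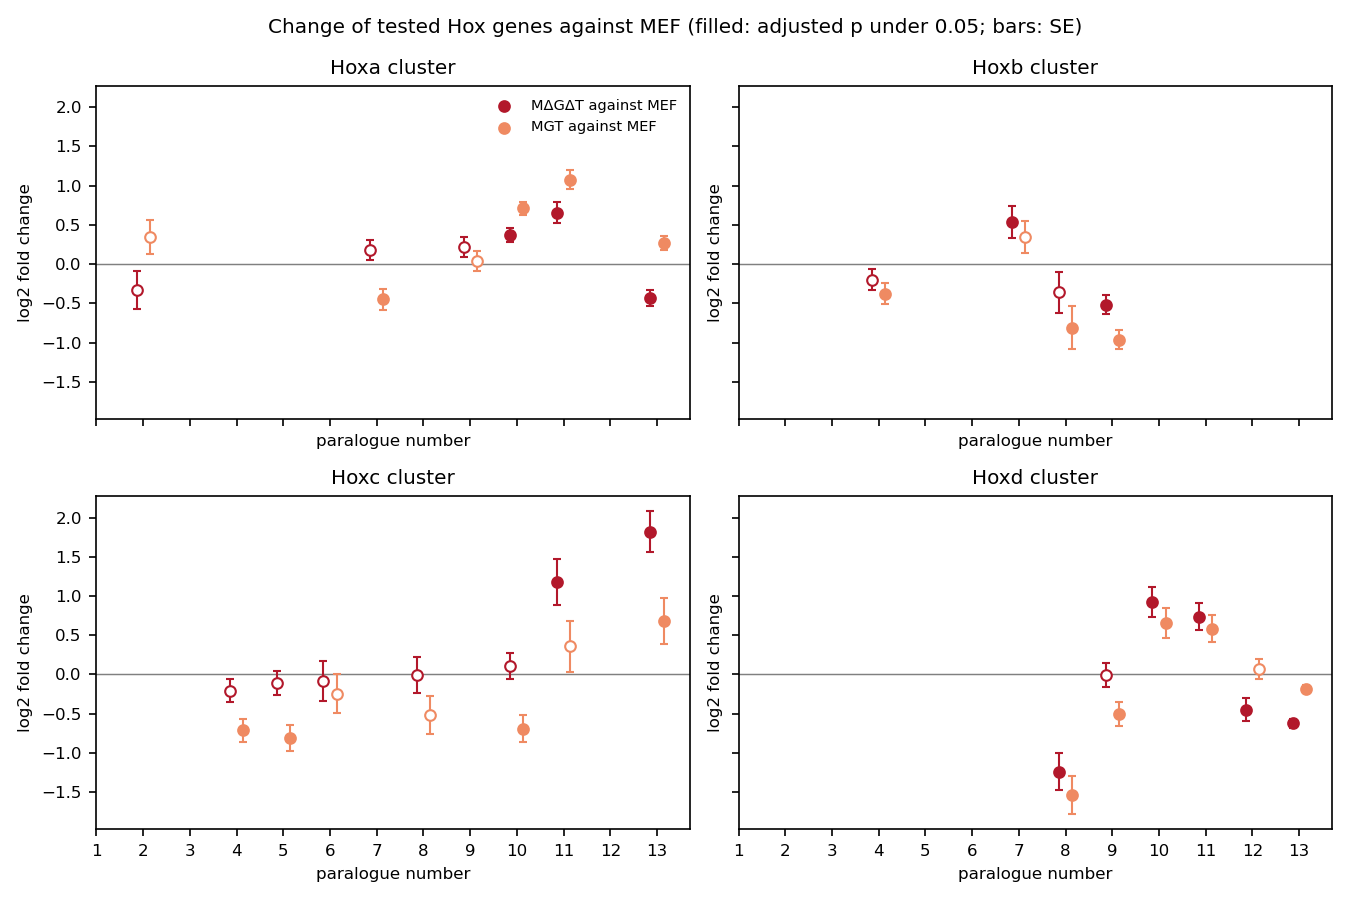
Log2 fold change of 23 tested Hox genes against MEF by cluster and paralogue number, for MΔGΔT (dark red) and MGT (orange); bars are SE, filled points have an adjusted p under 0.05. In the Hoxc cluster MΔGΔT lies above MGT at each tested gene, and at Hoxa13 the filled points lie on opposite sides of 0.

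In the Hoxa cluster, the genes of the upper and middle limb, Hoxa10 and Hoxa11, rose in both transduced groups and by more in MGT, while Hoxa13 fell in MΔGΔT. Hoxa10 (chromosome 6, 52231197 to 52240854, mm10, minus strand) stood at 22.9, 22.5, 17.8, 19.4 and 20.8 CPM in MΔGΔT libraries, 25.9, 29, 24.2, 27.5 and 23.7 CPM in MGT libraries and 14.4, 15.2, 19.5, 16.8 and 14 CPM in MEF libraries. All MGT libraries were above all others, and MΔGΔT overlapped MEF in the range of 17.8 to 19.5 CPM. Against MEF it rose by 0.38 ± 0.0891 in MΔGΔT (log2 fold change ± SE, n = 5 and 5, adjusted p = 0.000278) and by 0.71 ± 0.0842 in MGT (adjusted p = 1.57e-09). The MΔGΔT call was lost with library totals implied by the RPKM (0.14, adjusted p = 0.216). Hoxa11, a gene of the forearm and lower leg, had 7.89, 6.66, 6.18, 7.48 and 6.21 CPM in MΔGΔT libraries, 7.37, 9.84, 10.1, 9.78 and 9.18 CPM in MGT libraries and 4.15, 3.64, 4.82, 4.11 and 5.25 CPM in MEF libraries. The 5 MEF libraries were the lowest, with no overlap with either transduced group. It rose by 0.65 ± 0.135 in MΔGΔT (adjusted p = 4.82e-05) and by 1.08 ± 0.125 in MGT (adjusted p = 9.97e-10). Hoxa11os, a transcript from the opposite strand, overlaps 35% of the exonic length of Hoxa11. It was higher in MGT than in MEF by 0.48 ± 0.122 (adjusted p = 0.000765), and stood at 5.63 ± 0.782 CPM in MΔGΔT, 7.44 ± 0.648 CPM in MGT and 5.32 ± 0.631 CPM in MEF (SD, n = 5). Whether counting used strand is not given, so reads of the pair cannot be told apart with certainty.

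Hoxa13 was the one tested Hox gene called in opposite directions in the transduced groups. It stood at 9.22, 11, 9.37, 9.61 and 10.9 CPM in MΔGΔT libraries, 16.1, 15.7, 13.8, 16.7 and 19.4 CPM in MGT libraries and 14.3, 13.3, 14.1, 15 and 11.2 CPM in MEF libraries. All MΔGΔT libraries were below all MEF libraries, and the MGT libraries overlapped MEF between 13.8 and 15 CPM. Against MEF it fell by 0.44 ± 0.101 in MΔGΔT (adjusted p = 0.000218) and rose by 0.26 ± 0.0905 in MGT (adjusted p = 0.0112). The rise was not called without MEF replicate 5 (0.20, adjusted p = 0.0613) or without MGT replicate 5 (0.19, adjusted p = 0.0652).

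Toward the other end of the cluster, Hoxa2, which patterns the second pharyngeal arch, had 1.22, 2.22, 1.13, 1.42 and 1.74 CPM in MΔGΔT libraries, 2.71, 2.12, 2.74, 2.13 and 2.75 CPM in MGT libraries and 2.83, 1.53, 1.34, 1.81 and 2.23 CPM in MEF libraries. The ranges of all 3 groups overlapped, and neither transduced group was called against MEF (-0.33 ± 0.242 in MΔGΔT and 0.35 ± 0.214 in MGT). Hoxa7, a central gene of the thoracic spine, stood at 6.44, 6.86, 7.21, 5.66 and 6.54 CPM in MΔGΔT libraries, 4.07, 3.76, 4.33, 3.83 and 5.2 CPM in MGT libraries and 6.78, 5.56, 5.71, 5.92 and 4.8 CPM in MEF libraries. MΔGΔT and MEF libraries covered much the same range, and 4 of 5 MGT libraries were below all MEF libraries. It fell in MGT by 0.45 ± 0.133 (adjusted p = 0.00369) and was not called in MΔGΔT (0.18 ± 0.126, adjusted p = 0.192). Hoxa9 averaged 8.29 ± 1.41 CPM in MΔGΔT, 7.33 ± 0.805 CPM in MGT and 7.09 ± 0.83 CPM in MEF and was called in neither.

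In the Hoxb cluster, Hoxb9, a gene of the rib cage, fell in both transduced groups, and Hoxb7 rose in MΔGΔT by a call that 2 left-out libraries and 2 scalings each ended. Hoxb9 (chromosome 11, 96271457 to 96276595, plus strand) stood at 9.33, 8.27, 7.21, 9.61 and 7.08 CPM in MΔGΔT libraries, 6.44, 5.5, 7.61, 4.68 and 6.32 CPM in MGT libraries and 14.1, 13.8, 11.2, 9.78 and 10.3 CPM in MEF libraries. The 5 MEF libraries were above all libraries of both other groups. The fall was -0.52 ± 0.121 in MΔGΔT (adjusted p = 0.000239) and -0.96 ± 0.125 in MGT (adjusted p = 1.53e-08). Hoxb8 had 1.44, 2.42, 1.13, 1.42 and 2.29 CPM in MΔGΔT libraries, 1.19, 1.74, 0.973, 1.79 and 0.612 CPM in MGT libraries and 3.44, 1.63, 1.9, 1.57 and 2.57 CPM in MEF libraries. The groups overlapped, and MEF replicate 1 was the highest library. It fell in MGT by 0.81 ± 0.271 (adjusted p = 0.00979), a call lost without MEF replicate 1 (-0.59, adjusted p = 0.0711), and was not called in MΔGΔT (-0.36 ± 0.262). With RPKM-implied totals Hoxb8 was called lower in MΔGΔT as well (-0.59, adjusted p = 0.04). Hoxb4, a central gene known for its part in blood stem cells, averaged 5.22 ± 0.698, 4.59 ± 0.664 and 6.03 ± 0.856 CPM in MΔGΔT, MGT and MEF and fell in MGT by 0.38 ± 0.136 (adjusted p = 0.0159), a call lost with plain library totals (-0.30, adjusted p = 0.0532). Hoxb7 averaged 2.59 ± 0.478, 2.28 ± 0.209 and 1.79 ± 0.454 CPM and rose in MΔGΔT by 0.54 ± 0.208 (adjusted p = 0.02). Leaving out MEF replicate 5 ended this call (0.43, adjusted p = 0.0693), as did leaving out MΔGΔT replicate 3 (0.44, adjusted p = 0.0742). Plain library totals ended it (0.44, adjusted p = 0.0544), and so did those implied by the RPKM (0.30, adjusted p = 0.196). In MGT the difference of Hoxb7 was 0.35 ± 0.208 (adjusted p = 0.15).

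In the Hoxc cluster, the posterior genes Hoxc11 and Hoxc13 rose in MΔGΔT, and the genes Hoxc4, Hoxc5 and Hoxc10 fell in MGT. Hoxc13 (chromosome 15, 102921103 to 102928814, plus strand), known for its role in hair and nails, stood at 2.67, 2.72, 2.68, 2.53 and 3.27 CPM in MΔGΔT libraries, 1.61, 1.06, 1.77, 1.02 and 0.714 CPM in MGT libraries and 0.91, 0.767, 0.672, 1.09 and 0.446 CPM in MEF libraries. All MΔGΔT libraries were above every other library, and MGT overlapped MEF. The rise in MΔGΔT was 1.82 ± 0.257 (adjusted p = 5.59e-08), the largest among the tested Hox genes in either comparison with MEF. In MGT it was 0.68 ± 0.295 (adjusted p = 0.0436), and this call was lost without any one of MEF replicates 2, 3 and 5, MGT replicates 1 and 3 and MΔGΔT replicate 1, with the lowest value, 0.52 (adjusted p = 0.158), without MGT replicate 3. DESeq2 did not call it either (0.70, adjusted p = 0.0689). Hoxc11, a gene of the hind limb and lower spine, had 1.89, 2.93, 1.75, 1.42 and 2.29 CPM in MΔGΔT libraries, 1.53, 0.579, 1.42, 1.36 and 0.816 CPM in MGT libraries and 1.21, 1.34, 0.896, 0.362 and 0.558 CPM in MEF libraries. All MΔGΔT libraries were above all MEF libraries, by a narrow gap. It rose in MΔGΔT by 1.18 ± 0.297 (adjusted p = 0.000573) and was not called in MGT (0.36 ± 0.326, adjusted p = 0.349).

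Hoxc4, the most anterior Hoxc gene of the table, stood at 4.44, 4.64, 4.02, 4.15 and 3.81 CPM in MΔGΔT libraries, 2.8, 2.99, 3.63, 2.55 and 2.86 CPM in MGT libraries and 5.46, 3.93, 4.82, 4.95 and 5.25 CPM in MEF libraries. All MGT libraries were below all others. It fell in MGT by 0.71 ± 0.149 (adjusted p = 6.71e-05), against a difference of -0.21 ± 0.143 in MΔGΔT (adjusted p = 0.193). Hoxc5, its neighbour, had 6.66, 6.36, 4.43, 7.89 and 6.43 CPM in MΔGΔT libraries, 4.07, 3.47, 5.66, 3.15 and 3.06 CPM in MGT libraries and 8.39, 7.09, 4.93, 6.64 and 6.92 CPM in MEF libraries. MGT replicate 3 lay within the range of the other groups and the other 4 MGT libraries below it. It fell in MGT by 0.81 ± 0.165 (adjusted p = 6.65e-05), against -0.10 ± 0.154 in MΔGΔT (adjusted p = 0.556). With RPKM-implied totals both Hoxc4 (-0.44, adjusted p = 0.00593) and Hoxc5 (-0.34, adjusted p = 0.035) were called lower in MΔGΔT as well. Hoxc10, a gene of the hind limb and lumbar cord, had 3.55, 4.44, 4.84, 5.26 and 3.81 CPM in MΔGΔT libraries, 2.63, 3.28, 2.74, 1.87 and 2.14 CPM in MGT libraries and 4.35, 4.7, 3.25, 4.71 and 3.35 CPM in MEF libraries. The highest MGT library lay just above the lowest MEF library, and MΔGΔT and MEF overlapped. The fall in MGT was -0.69 ± 0.176 (adjusted p = 0.000819), and in MΔGΔT the difference was 0.11 ± 0.162 (adjusted p = 0.563). Hoxc5 and Hoxc10 share exon sequence on the same strand (5.4% and 8.7% of their exonic length), so part of their reads cannot be assigned with certainty. Hoxc8 had counts of 1.78, 2.62, 2.06, 2.73 and 1.74 CPM in MΔGΔT libraries, 1.86, 1.93, 1.59, 1.45 and 0.816 CPM in MGT libraries and 3.24, 1.92, 1.79, 2.54 and 1.56 CPM in MEF libraries. The groups overlapped and no comparison was called on counts in the main fit. For Hoxc8 the counts came to a small share of the reads that its RPKM implies, as described for the RPKM. Its difference in MGT against MEF was -0.52 ± 0.238 (adjusted p = 0.0574). Upper-quartile factors (-0.54, adjusted p = 0.0466) and the replicate block (-0.52, adjusted p = 0.0482) called it. So did leaving out any one of MEF replicates 2, 3 and 5 and MGT replicates 1 and 2. Between the transduced groups, leaving out MGT replicate 2 gave a call (0.60, adjusted p = 0.0455). The same held for MΔGΔT replicate 1 (0.57, adjusted p = 0.0497) and MΔGΔT replicate 5 (0.58, adjusted p = 0.0457). Hoxc6 averaged 1.28 ± 0.161, 1.14 ± 0.244 and 1.37 ± 0.314 CPM in MΔGΔT, MGT and MEF and was not called.

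The Hoxd cluster split by position: Hoxd13 and Hoxd12 fell in MΔGΔT, their neighbours Hoxd11 and Hoxd10 rose in both transduced groups, and Hoxd8 fell in both. Hoxd13 (chromosome 2, 74668310 to 74671599, plus strand) stood at 29.9, 30.4, 30, 29.5 and 29.2 CPM in MΔGΔT libraries, 38.7, 41.4, 38.6, 39.8 and 43.4 CPM in MGT libraries and 46.6, 47.5, 42.1, 43.9 and 49.3 CPM in MEF libraries. All MΔGΔT libraries were below all MGT libraries, and MGT overlapped MEF between 42.1 and 43.4 CPM. The fall was -0.62 ± 0.0568 in MΔGΔT (adjusted p = 1.23e-12) and -0.19 ± 0.0534 in MGT (adjusted p = 0.00251), where the call was lost with library totals (-0.11, adjusted p = 0.0677). Hoxd12 had 3, 3.93, 3.3, 3.84 and 3.92 CPM in MΔGΔT libraries, 5.34, 4.82, 4.78, 5.44 and 5.51 CPM in MGT libraries and 4.25, 4.6, 5.15, 6.16 and 4.69 CPM in MEF libraries. All MΔGΔT libraries were below all others, while MGT lay within the MEF range. It fell in MΔGΔT by 0.45 ± 0.146 (adjusted p = 0.0059), with a difference of 0.07 ± 0.132 in MGT (adjusted p = 0.673).

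Hoxd11, which with Hoxa11 shapes the forearm, stood at 4.22, 4.94, 3.19, 3.84 and 3.16 CPM in MΔGΔT libraries, 3.05, 3.76, 3.8, 3.4 and 3.47 CPM in MGT libraries and 2.02, 2.59, 2.13, 2.3 and 2.57 CPM in MEF libraries. The MEF libraries were below all others. It rose by 0.74 ± 0.174 in MΔGΔT (adjusted p = 0.000269) and by 0.58 ± 0.173 in MGT (adjusted p = 0.00355). Hoxd10 had 5.67, 5.04, 4.84, 6.67 and 6.32 CPM in MΔGΔT libraries, 4.66, 4.05, 6.28, 3.06 and 5.81 CPM in MGT libraries and 3.84, 3.83, 2.24, 1.93 and 2.9 CPM in MEF libraries. All MΔGΔT libraries were above all MEF libraries, and MGT overlapped both. The rise was 0.92 ± 0.19 in MΔGΔT (adjusted p = 5.31e-05) and 0.66 ± 0.192 in MGT (adjusted p = 0.00329). Hoxd8, a central gene, had 0.778, 1.21, 0.618, 1.42 and 0.872 CPM in MΔGΔT libraries, 0.932, 0.579, 0.796, 0.85 and 0.816 CPM in MGT libraries and 2.22, 2.2, 2.46, 2.17 and 2.68 CPM in MEF libraries. Every MEF library was above every transduced library. It fell by 1.24 ± 0.238 in MΔGΔT (adjusted p = 1.53e-05) and by 1.54 ± 0.24 in MGT (adjusted p = 5.96e-07), the largest fall among the tested Hox genes in both. Hoxd9 averaged 5.14 ± 0.703, 3.62 ± 0.57 and 5.21 ± 1.18 CPM in MΔGΔT, MGT and MEF and fell in MGT by 0.50 ± 0.156 (adjusted p = 0.00534).

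**Figure D3:**
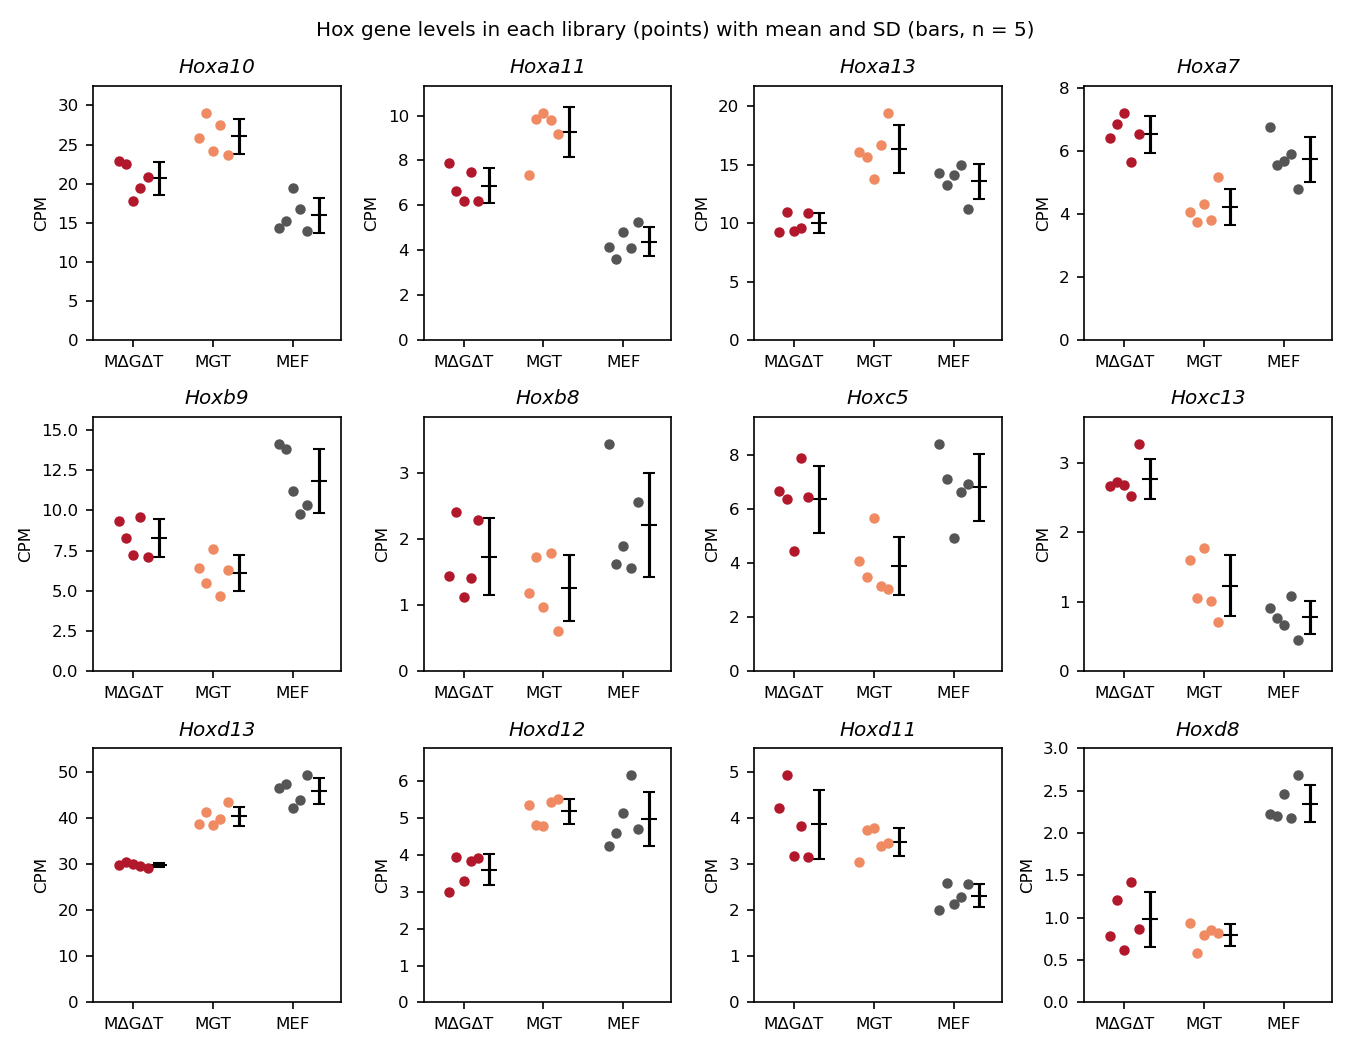
CPM of 12 Hox genes in each library (points), with mean and SD of the 5 libraries of a group (bars), MΔGΔT, MGT and MEF from left to right; each axis starts at 0. Hoxd13 and Hoxa13 are lowest in MΔGΔT, Hoxa10 and Hoxa11 highest in MGT, Hoxc13 highest in MΔGΔT, and Hoxb9 and Hoxd8 highest in MEF.

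The 250 bases before the start of transcription were read from RefSeq (GRCm38.p6) for the 16 members it holds under their symbol. They are shown for a pair of genes in each of the Hoxa and Hoxd clusters that moved in opposite directions in MΔGΔT, chosen after their values were seen: Hoxa10 (chr6:52240855-52241104, minus strand) and Hoxd11 (chr2:74679308-74679557, plus strand), which rose, and Hoxa13 (chr6:52260881-52261130, minus strand) and Hoxd13 (chr2:74667975-74668224, plus strand), which fell. Capitals mark CG dinucleotides, 5′ to 3′ on the strand of the gene.
Hoxa10: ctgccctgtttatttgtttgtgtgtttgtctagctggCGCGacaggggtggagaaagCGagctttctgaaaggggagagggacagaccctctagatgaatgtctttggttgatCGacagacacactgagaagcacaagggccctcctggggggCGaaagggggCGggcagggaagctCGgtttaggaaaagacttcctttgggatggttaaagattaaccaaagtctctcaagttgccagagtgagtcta
Hoxd11: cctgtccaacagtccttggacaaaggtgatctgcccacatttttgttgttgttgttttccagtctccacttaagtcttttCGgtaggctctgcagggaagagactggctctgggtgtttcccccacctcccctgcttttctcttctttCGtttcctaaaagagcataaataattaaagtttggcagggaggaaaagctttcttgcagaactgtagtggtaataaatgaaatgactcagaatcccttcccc
Hoxa13: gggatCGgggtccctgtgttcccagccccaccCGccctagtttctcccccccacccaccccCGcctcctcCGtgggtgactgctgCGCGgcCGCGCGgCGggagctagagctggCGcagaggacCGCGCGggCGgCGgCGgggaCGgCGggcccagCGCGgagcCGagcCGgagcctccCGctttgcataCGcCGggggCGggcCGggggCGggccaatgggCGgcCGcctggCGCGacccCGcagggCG
Hoxd13: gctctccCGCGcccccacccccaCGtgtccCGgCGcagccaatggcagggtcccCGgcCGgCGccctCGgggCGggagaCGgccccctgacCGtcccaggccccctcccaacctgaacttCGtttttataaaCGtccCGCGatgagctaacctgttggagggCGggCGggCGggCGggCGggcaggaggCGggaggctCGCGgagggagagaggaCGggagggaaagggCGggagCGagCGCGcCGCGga

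The promoters of Hoxa13 and Hoxd13 held 35 and 31 CG dinucleotides, a number that 2.82% and 4.93% of all 27025 RefSeq promoters reached. Those of Hoxa10 and Hoxd11 held 7 and 2, which 46.5% and 80.6% reached. Hoxd12, which also fell in MΔGΔT, held 10, and Hoxa11 and Hoxd10, which rose, held 13 and 20, so CG number did not sort the genes by direction. The median was 9 over the 16 Hox promoters and 6 over all. In the same windows, on both strands, the MEF2 motif (CTA and TAG with 4 free bases between) was found in 0 of 16 Hox promoters (3.23% of all promoters hold it) and the GATA motif AGATAA in 0 of 16 (10.3%). The T-box motif AGGTGTGA was found in 1, Hoxd9 (1.14% of all), 147 to 140 bases before its start. The Hox-Pbx motif TGATTNAT was found in 1, Hoxa2 (2.99%), 111 to 104 bases before its start on the opposite strand. These are matches of letters in short windows and say nothing of binding there or elsewhere.

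The direct comparison of the transduced groups showed 5 Hoxc genes higher, and Hoxa10, Hoxa11, Hoxa13, Hoxd12 and Hoxd13 lower, with the engineered factors. Of the 24 tested genes, 8 were higher in MΔGΔT than in MGT, against 30.4% of all genes tested, and 6 were lower, against 27.8%. The median log2 fold change was 0.28 over the Hox genes and 0.01 over all genes. All 5 libraries of MΔGΔT lay above all of MGT for 4 genes (24.5% of all genes did) and below for 4 (20.8%). Of 7 tested Hoxc genes, 5 were higher and 0 lower, with a median of 0.70. Of 7 Hoxa genes, 1 was higher and 4 were lower (median -0.33), of 4 Hoxb genes 1 was higher and 0 lower (0.32), and of 6 Hoxd genes 1 was higher and 2 were lower (0.21). Of 9 central genes, 3 were higher and 0 lower, and of 13 posterior genes 5 were higher and 5 lower.

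In single genes, the highest log2 fold change was that of Hoxc13, 1.14 ± 0.222 (SE, n = 5 and 5, adjusted p = 3.13e-05). Hoxc11 was higher by 0.82 ± 0.27 (adjusted p = 0.00911), a call lost without MΔGΔT replicate 2 (0.65, adjusted p = 0.0536) or with RPKM-implied totals (0.57, adjusted p = 0.0598). Hoxc10 was higher by 0.80 ± 0.172 (adjusted p = 0.00013), with all MΔGΔT libraries above all MGT libraries. Hoxc5 and Hoxc4 differed by 0.70 ± 0.166 (adjusted p = 0.000482) and 0.51 ± 0.152 (adjusted p = 0.00432). Outside the Hoxc cluster, Hoxa7 was higher by 0.63 ± 0.129 (adjusted p = 6.27e-05), Hoxd9 by 0.49 ± 0.156 and Hoxb9 by 0.44 ± 0.133. The calls of Hoxd9, Hoxb9 and Hoxc4 were lost with plain library totals (0.32, adjusted p = 0.0707; 0.27, adjusted p = 0.0747; and 0.33, adjusted p = 0.0529). They were also lost with RPKM-implied totals (0.24, adjusted p = 0.178; 0.19, adjusted p = 0.193; and 0.25, adjusted p = 0.145).

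Among the genes lower in MΔGΔT than in MGT, Hoxa13 had a log2 fold change of -0.70 ± 0.0953 (adjusted p = 4.7e-08) and Hoxd13 of -0.44 ± 0.0566 (adjusted p = 1.67e-08). For both of these autopod genes all 5 MΔGΔT libraries were below all 5 MGT libraries, as they were for Hoxa10 and Hoxd12. Hoxa10 differed by -0.33 ± 0.08 (adjusted p = 0.000457) and Hoxd12 by -0.52 ± 0.14 (adjusted p = 0.00162). Hoxa11 differed by -0.42 ± 0.113 (adjusted p = 0.0015) and Hoxa2 by -0.68 ± 0.223 (adjusted p = 0.00892). Hoxd8, Hoxd10 and Hoxd11 were not called (0.30, 0.26 and 0.15). Scaling mattered here: with plain library totals 5 genes were higher, and with the totals implied by the RPKM 4, while 6 stayed the count of lower genes under both. Those settings moved the median of all genes in this comparison by -0.17 and -0.26.

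**Figure D4:**
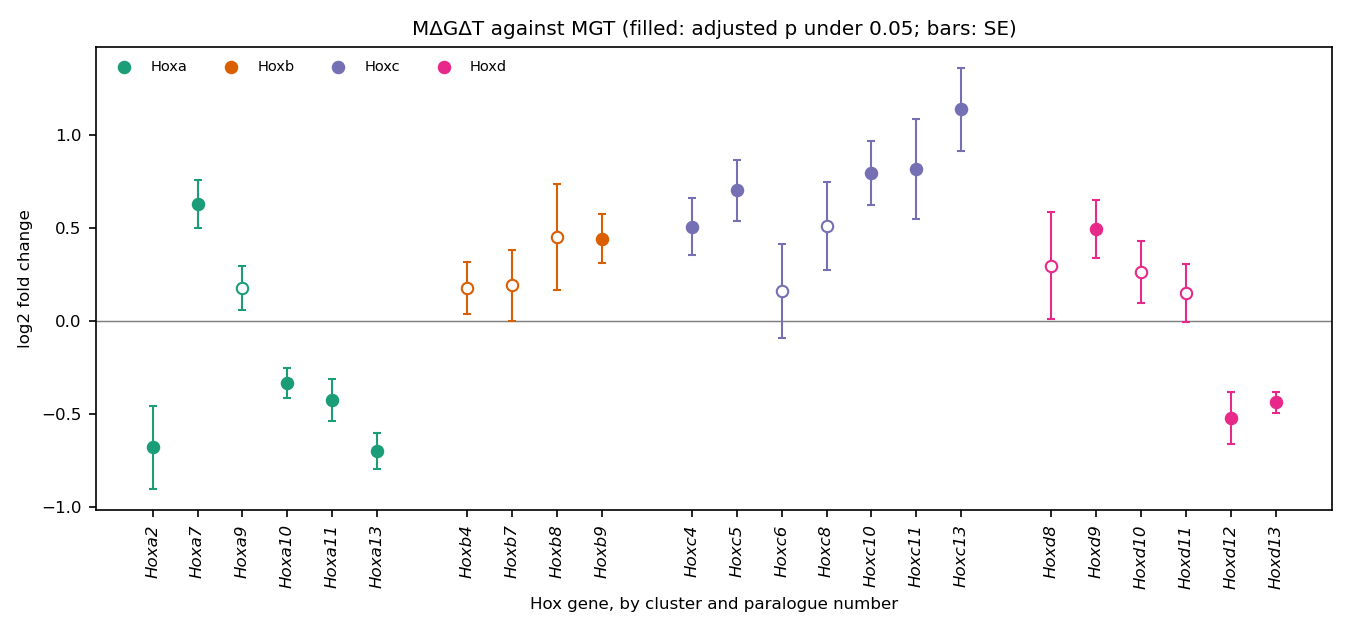
Log2 fold change of 23 tested Hox genes in MΔGΔT against MGT, by cluster and paralogue number; bars are SE and filled points have an adjusted p under 0.05. The 7 Hoxc genes lie above 0, and Hoxa10, Hoxa11, Hoxa13, Hoxd12 and Hoxd13 lie below it.

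Summed by cluster, the Hox genes held 148 ± 6.77 CPM in MΔGΔT, 156 ± 2.58 CPM in MGT and 158 ± 6.95 CPM in MEF libraries (SD, n = 5). The ranges of this sum overlapped between the groups, at 138 to 156, 152 to 158 and 149 to 168 CPM. Summed RPKM put on the same library sizes overlapped as well, at 51.7 to 57.7, 50.6 to 54.7 and 54.5 to 62. The RPKM as deposited, whose library totals place the groups on another scale, did not overlap, at 46.9 to 51.9, 53.5 to 57.5 and 57.9 to 63.7. Hoxa genes held 55.6 ± 4.4, 66.9 ± 2.88 and 49.5 ± 3.15 CPM, and Hoxd genes 49.7 ± 1.71, 58.6 ± 2.34 and 64.6 ± 3.42 CPM. Hoxb genes held 18.7 ± 1.32, 15.1 ± 1.24 and 22.4 ± 2.02 CPM, and Hoxc genes 24.3 ± 1.89, 15 ± 2.65 and 21.3 ± 2.87 CPM. On these counts the Hoxd sum of all MΔGΔT libraries was below that of all MGT and MEF libraries, and the Hoxa sum of all MGT libraries above that of all others. Hoxd13 alone made up 29.8, 40.4 and 45.9 CPM of the Hoxd sum. On RPKM with matched library sizes, which reads Hoxd8, Hoxd10 and Hoxd11 differently, the Hoxd sums of MΔGΔT and MGT libraries overlapped. Sums over genes carry no test here.

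The 4 untested genes had low counts. Hoxb13 had 3, 5, 4, 13 and 4 counts in MΔGΔT, 3, 3, 1, 7 and 8 in MGT and 1, 1, 0, 0 and 0 in MEF libraries. Per library size this was 14.1 times as much in MΔGΔT as in MEF (95% counting interval 3.58 to 122) and 9.29 times as much in MGT (2.28 to 81.5), intervals that cover counting error only. Hoxc12, beside Hoxc13, had 4, 13, 12, 10 and 11 counts in MΔGΔT, 9, 4, 8, 7 and 4 in MGT and 4, 4, 0, 2 and 4 in MEF libraries. Of 4 transcripts listed with the Hox clusters, Hoxa11os and Gm53 had enough counts to be tested, and Gm53 was higher in MΔGΔT than in MEF by 1.09 ± 0.0917 (adjusted p = 2.6e-13) and in MGT by 0.46 ± 0.0963 (adjusted p = 8.84e-05). Hoxb3 and Hoxd4 had sums of 14 and 31 counts in MΔGΔT, 25 and 21 in MGT and 22 and 42 in MEF libraries, a part of the reads behind their RPKM.

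The deposited RPKM was a second reading of the same libraries, and for 12 of the 28 genes it did not follow the count. For the other 16 it was the count times 1 constant per gene, within 2% and the rounding of the printed values; 71.2% of all features did so. Set against the exonic length of GENCODE M21, the counts held 5.61% of the reads behind the RPKM of Hoxb3, 8.07% for Hoxc8, 9.56% for Hoxd8, 10.3% for Hoxc6, 19.5% for Hoxd11, 25.3% for Hoxd4 and 42.4% for Hoxc10. For Hoxa2, Hoxa7, Hoxa11 and Hoxd10 they held 61.1% to 77.1%. Hoxa9, whose RPKM followed its count, came to 62.9% too, so a share of this size does not by itself show that counts miss reads. How the authors counted is not given in the sources used here, and why the pair of measures differs was not tested. By this reckoning the RPKM of the genes with low shares rests on more reads. The RPKM was tested as well, on the log2(RPKM + 0.1) scale with limma after the library sizes were matched to those of the counts. That choice was made after seeing the data.

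On RPKM the directions of the called genes stayed as they were and further central genes were called. Of the 28 genes, 11 were higher and 6 lower in MΔGΔT than in MEF (36.8% and 36.6% of all genes), and 9 were higher and 14 lower in MGT (31.4% and 30%). Of the 10 central genes, 9 were lower in MGT and 1, Hoxb7, was higher. Hoxd8, whose RPKM on matched sizes was 2.14 ± 0.247 in MΔGΔT, 1.74 ± 0.253 in MGT and 5.76 ± 0.606 in MEF (SD, n = 5), fell by 1.39 and 1.68 on this scale. Hoxd11, with 3.28 ± 0.266, 2.71 ± 0.171 and 1.2 ± 0.169, rose by 1.39 in MΔGΔT and 1.13 in MGT (adjusted p by limma 2.19e-11 and 8.06e-10), against 0.74 and 0.58 on counts. Its counts held 17.2% of the reads behind its RPKM in MΔGΔT, 18.7% in MGT and 28.3% in MEF.

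Hoxc8 stood at 5.99 ± 0.266 RPKM in MΔGΔT, 4.1 ± 0.355 RPKM in MGT and 5.97 ± 1.03 RPKM in MEF. By limma it was lower in MGT than in MEF by 0.52 (adjusted p = 0.000102) and differed by 0.02 in MΔGΔT (adjusted p = 0.844). Hoxc6, with 3.39 ± 0.238, 2.61 ± 0.23 and 3.37 ± 0.337 RPKM, was lower in MGT by 0.35 (adjusted p = 0.000414). Between the transduced groups, 13 of the 28 genes were higher in MΔGΔT (30.2% of all genes) and 5 lower (27.9%) on RPKM, and 7 of the 8 Hoxc genes were higher. Among the 24 genes tested on counts, RPKM gave 12 higher and 5 lower, against 8 and 6 on counts. Hoxc8 differed by 0.54 (adjusted p = 7.86e-05) and Hoxc6 by 0.36 (adjusted p = 0.000354). Hoxa2 was no longer called (-0.46, adjusted p = 0.0656), and 0 genes were called in opposite directions by the pair of measures in any comparison.

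**Figure D5:**
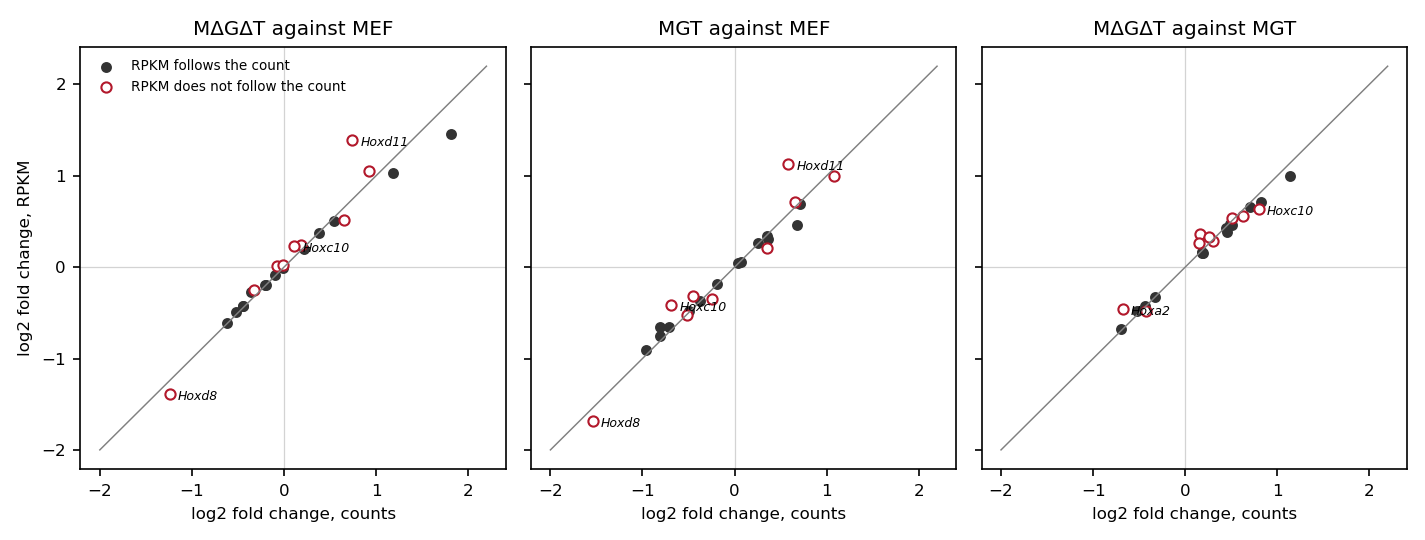
Log2 fold change on RPKM against that on counts for 23 tested Hox genes in MΔGΔT against MEF, MGT against MEF and MΔGΔT against MGT; filled points are genes whose RPKM follows the count, open points those whose RPKM does not, and the line marks equal values. Hoxd11 lies above the line in both comparisons with MEF, at 1.39 on RPKM against 0.74 on counts in MΔGΔT and 1.13 against 0.58 in MGT.

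Genes that work with or on Hox genes were counted by lists. The TALE homeodomain proteins (Pbx, Meis and Pknox), with which Hox proteins bind DNA, were listed with their relative Tgif1 and the Pbx-binding protein Pbxip1. The list gave 5 higher and 5 lower genes of 11 in MΔGΔT against MEF, and 5 higher and 3 lower in MGT (medians -0.03 and 0.22). Pbxip1 stood at 390 ± 7.57, 210 ± 6.12 and 177 ± 5.99 CPM in MΔGΔT, MGT and MEF (SD, n = 5), and rose by 1.14 and 0.25. Meis3 rose by 0.64 and 0.31. Pbx3 was called in opposite directions, with 18.5 ± 0.772, 31.1 ± 2.1 and 26.7 ± 1.73 CPM and log2 fold changes of -0.54 ± 0.07 in MΔGΔT (adjusted p = 1.02e-08) and 0.22 ± 0.0631 in MGT (adjusted p = 0.00327). Between the transduced groups 3 genes of this list were higher and 3 lower in MΔGΔT.

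Of 30 Polycomb group genes, which keep Hox clusters silent, 10 were higher and 14 lower in MΔGΔT than in MEF, and 12 were higher and 8 lower in MGT (medians -0.02 and 0.07). Pcgf5, a subunit of a variant Polycomb complex, rose to 60.3 ± 2.43 CPM in MΔGΔT and 21.8 ± 2.96 CPM in MGT, against 5.91 ± 0.809 CPM in MEF. Aebp2, a partner of the methyltransferase complex, rose by 0.86 and 0.60, and Rybp, of the variant complexes, fell by 1.05 and 0.60. Rbbp4 and Mtf2 were lower in MΔGΔT (-0.20 and -0.24) and higher in MGT (0.10 and 0.27) than in MEF, and Pcgf3 was higher in MΔGΔT (0.25) and lower in MGT (-0.10). Of 19 Trithorax group genes and H3K27 demethylases, which keep clusters active, 9 were higher and 8 lower in MΔGΔT, and 11 were higher and 3 lower in MGT (medians -0.06 and 0.12). Mllt3, of a transcription elongation complex, rose by 2.50 and 1.62, Aff1 by 1.05 and 0.50, and the methyltransferase gene Ash1l by 0.64 and 0.36. Psip1 was lower in MΔGΔT (-0.22) and higher in MGT (0.16). With the RPKM-implied totals the median of all genes in MΔGΔT against MEF moved by -0.24, about as much as the changes of Rbbp4, Mtf2, Pcgf3 and Psip1 there. Between the transduced groups, 8 Polycomb genes were higher and 13 lower in MΔGΔT, and 7 Trithorax genes higher and 8 lower.

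Retinoic acid is a known inducer of anterior Hox genes. Of 20 tested genes of its pathway and other regulators upstream of Hox genes, 6 were higher and 12 lower in MΔGΔT than in MEF (median -0.34), and 7 were higher and 5 lower in MGT (median 0.00). Between the transduced groups 2 were higher and 16 lower in MΔGΔT (median -0.50). Rdh10, which makes retinal from retinol, rose by 1.35 in MΔGΔT and 1.62 in MGT. The receptor gene Rxra fell by 0.78 in MΔGΔT and 0.31 in MGT. Crabp1, which binds retinoic acid in the cytoplasm, was called in opposite directions, with 30 ± 6.15 CPM in MΔGΔT and 90.2 ± 14.7 CPM in MGT, against 54.7 ± 4.84 CPM in MEF.

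Of 17 tested genes beside the Hox clusters, 5 were higher and 5 lower in MΔGΔT, and 7 were higher and 3 lower in MGT (medians -0.02 and 0.09). Nfe2l1, a transcription factor gene, rose by 0.67 and 0.12, and Cbx5, which encodes a heterochromatin protein, by 0.45 and 0.39. Hnrnpa1, which encodes an RNA-binding protein, was lower in MΔGΔT (-0.40) and higher in MGT (0.17). Other transcription factors of position in the limb, trunk and face were more often lower than higher: of 41 tested, 10 were higher and 23 lower in MΔGΔT (median -0.40), and 11 were higher and 17 lower in MGT (median -0.17). Osr2 stood at 1.6 ± 0.365 CPM in MΔGΔT and 7.12 ± 0.516 CPM in MGT, against 21.9 ± 2.36 CPM in MEF. Osr1 fell by 2.21 and 0.93, and Msx1, a gene of the distal limb and the face, by 1.85 and 0.56. Tbx4, the hind limb T-box gene, was lower in MΔGΔT (-0.40 ± 0.0754, adjusted p = 1.08e-05) and higher in MGT (0.17 ± 0.0691, adjusted p = 0.0303). All these counts stand beside the background shares given with the Hox counts, and nothing particular to a list is read from them.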

How the data were processed

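Strand-specific libraries came from RNA without ribosomal RNA, per the labels. The deposited table gives per feature and library whole-number counts (headed as expression values, per the file headers) and RPKM computed by the authors. The submitters' processing notes name mm10 as the build. Which aligner and counter were used, and whether strand entered the counting, is not given in the sources used here. A further 30 columns of normalized and transformed values were not used. The counts were fitted with edgeR 4.0.16 (R 4.3.3): filterByExpr left 13328 of 14091 features, library sizes were scaled by TMM, and a robust quasi-likelihood model with a term per group (12 residual degrees of freedom, biological coefficient of variation 4.86%) was tested with Benjamini-Hochberg adjustment over all tested genes. The SE is that implied by the F statistic. The methods were tested on simulated data. RPKM, rescaled to TMM sizes, was tested with limma 3.58.1 (pseudocount 0.1), over 13332 genes since the 4 untested Hox genes were added; DESeq2 1.42.0 served as an alternative. RefSeq promoters and GENCODE M21 coordinates were matched by symbol.

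The 28 members and the gene lists were chosen with earlier results of these data known. Values in every library are given for the member with the highest mean RPKM of each cluster, the 5 called members with the largest rise and the 5 with the largest fall per comparison, and members called in opposite directions against MEF. Of the other lists, the 3 tested genes with the smallest adjusted p in MΔGΔT against MEF and those called in opposite directions are named; cell type markers are given by sums. The counts and sums include 1 Hox gene and 2 genes of other lists that are not reported here. No libraries were near-identical: counts of replicates differed by 1.61 to 7.43 times the chi-square expected from sampling per degree of freedom. The highest values, 4.67 to 7.43, were those of MEF replicate 1 with the other MEF libraries, and the other pairs reached at most 4.04. The main fit did not pair libraries by replicate number (see the dependence on processing). Alternatives were another scaling, filters on low counts, another tool, the replicate block, only the compared groups, and each library left out.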

Additional observations from a re-analysis of the deposited data

Results flagged for a closer look

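In 2 of the 84 combinations of a Hox gene and a group, 1 library stood apart from the other 4 by more than the 95% limit for a gap within a group of 5; chance flags about 1 in 20 groups. Hoxb13 had 1.31 CPM (13 counts) in MΔGΔT replicate 4, and the next highest MΔGΔT library had 0.504 CPM. Hoxc13 had 3.27 CPM (30 counts) in MΔGΔT replicate 5, and the next highest had 2.72 CPM. With or without any 1 library, the log2 fold change of Hoxc13 in MΔGΔT against MEF was between 1.68 and 1.95.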

How the results depend on the processing

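Leaving out 1 library at a time left 7 to 8 Hox genes higher and 5 lower in MΔGΔT against MEF, 4 to 8 higher and 9 to 11 lower in MGT against MEF, and 7 to 9 higher and 6 lower in MΔGΔT against MGT. Library totals without composition factors gave 5 higher genes in MΔGΔT against MGT. Totals implied by the RPKM gave 4 there, and 10 lower genes in MΔGΔT against MEF, where Hoxa2, Hoxb4, Hoxb8, Hoxc4 and Hoxc5 were added. These settings move all genes of a group together, by -0.24 in the median of MΔGΔT against MEF with RPKM-implied totals. Other counts stayed within 1.5 times the reported one.

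Signs turned for uncalled differences. In MΔGΔT against MGT, library totals gave -0.02 for Hoxd11 and -0.01 for Hoxc6, and RPKM-implied totals gave -0.11 for Hoxd11, -0.09 for Hoxc6, -0.08 for both Hoxa9 and Hoxb4 and -0.06 for Hoxb7. In MΔGΔT against MEF, RPKM-implied totals gave -0.05 for Hoxa7, -0.02 for Hoxa9 and -0.13 for Hoxc10, and RPKM with limma gave 0.02 for Hoxc8 and 0.01 for Hoxc6. With 1 library left out, Hoxc8 ranged from -0.11 to 0.18, Hoxc5 from -0.20 to 0.00, Hoxc6 from -0.17 to 0.03 and Hoxd9 from -0.08 to 0.11 in MΔGΔT against MEF, and Hoxa9 from -0.03 to 0.10 in MGT against MEF. Over all settings that left out 1 library, 1044 of 1080 values kept direction and call, and 675 of 719 under the others; the cause of the other changes was not tested.

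Same-numbered libraries showed little shared deviation (correlations from -0.0918 to 0.0668 over 15 pairs). In 3 of 15 cases a library correlated best with its own number, all of them in MΔGΔT against MGT. Correlations this weak cannot show whether same-numbered libraries shared a culture or a batch. With the replicate block, 8 genes were higher and 5 lower in MΔGΔT against MEF, 5 higher and 11 lower in MGT against MEF, and 8 higher and 6 lower in MΔGΔT against MGT. Low counts limit the 4 untested genes and tested ones such as Hoxc6, Hoxd8, Hoxc11, Hoxc13, Hoxb8 and Hoxc8, whose values rest on few reads per library.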
